A study of Mus musculus with 12 samples.

Results

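Gene expression in CSS1 mice was compared directly with that in CSS2 mice. The comparison rests on 8 of the 12 arrays of the series, chosen by the mouse named in the array's title: 4 arrays of CSS1 mice and 4 of CSS2 mice, all labelled as hippocampus at postnatal day 14. The names were read as those of substitution strains, with chromosome 1 exchanged in CSS1 and chromosome 2 in CSS2, on the C57BL/6J (Bl6) background; the labels state neither this nor the donor strain. Each array held the RNA of 1 mouse in one dye and a pool of Bl6 RNA in the other, and every value below is a log2 ratio of sample over this pool with the fitted dye effect taken out. No array of a Bl6 mouse entered the comparison, and the pool, common to all 8 arrays, cancels in the difference CSS1 minus CSS2. The title of the series names Srp9, a gene of chromosome 1, as a febrile seizure susceptibility gene; the design text speaks of brains of individual mice where the labels name hippocampus. How the mice were bred or housed, and whether any were litter mates, is not stated, so p-values measure the spread between these 4 and 4 mice.

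A chromosome substitution strain carries a single chromosome of a donor strain in place of the host's own, with the rest of the genome from the host. Genes on the exchanged chromosome carry donor alleles, and a gene elsewhere can still change when a regulator on that chromosome differs. Setting 2 such strains side by side places donor alleles of one chromosome against host alleles in one direction and those of the other chromosome in the opposite direction. The hippocampus at this age still holds dividing cells of the dentate gyrus and is building myelin, and experimental febrile seizures are induced in rodents at about this age.

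The arrays gave comparable signal. CSS1 mice had median sample intensities of 216 to 390 and CSS2 mice of 188 to 408, over a median background of 36 to 42. CSS2 mouse 1 had the fewest gene probes above background, 89.6%, and CSS2 mouse 10 the most, 99.9%. The 15 measured genes that mark hippocampal subfields were above background in all 8 mice, as most gene probes were, so this says little about the tissue. None of them passed the test between the strains, which 0.654% of all genes did. An unadjusted limma p under 0.05 was found in 3 of the 15, against 7.85% of all genes. After the dye effect, a probe varied between mice of a strain by a median SD of 0.0665, against 0.0319 between the 9 repeated spots of a quality probe within an array. Probe sequences were not used here, so whether a donor allele differs from the probe that reads it was not tested for any gene below.

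Of 21563 genes tested, 141 differed between CSS1 and CSS2 at a limma adjusted p under 0.05, which is 0.654% of the genes. Of these, 58 were higher in CSS1 (0.269%) and 83 were lower (0.385%). The difference exceeded 0.5 on the log2 scale for 51 of them, 22 higher and 29 lower, and 1 for 14 of them, while the median size of difference over all genes tested was 0.0386. In all 141 genes the 4 CSS1 values and the 4 CSS2 values did not overlap, which 6.71% of all genes also showed. Leaving out CSS1 mouse 3 gave 72 calls and CSS1 mouse 12 gave 90, and leaving out CSS2 mouse 4, 7 or 10 gave 85, 79 and 81. Of the 141 genes, 57 were still called without the dye term and 68 with median centring. At an unadjusted p under 0.05, 1693 genes (7.85%) differed, and 47.7% of all genes had a positive difference. Every one of the 141 genes kept its sign under each of these and the other settings tried, apart from 6 that a stricter filter on dim probes left untested. This says little. In the balanced design the fits without the dye term, with blocks or with 12 arrays leave the estimated difference itself unchanged. The genes were also picked for separated values in these same arrays.

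**Figure D1:**
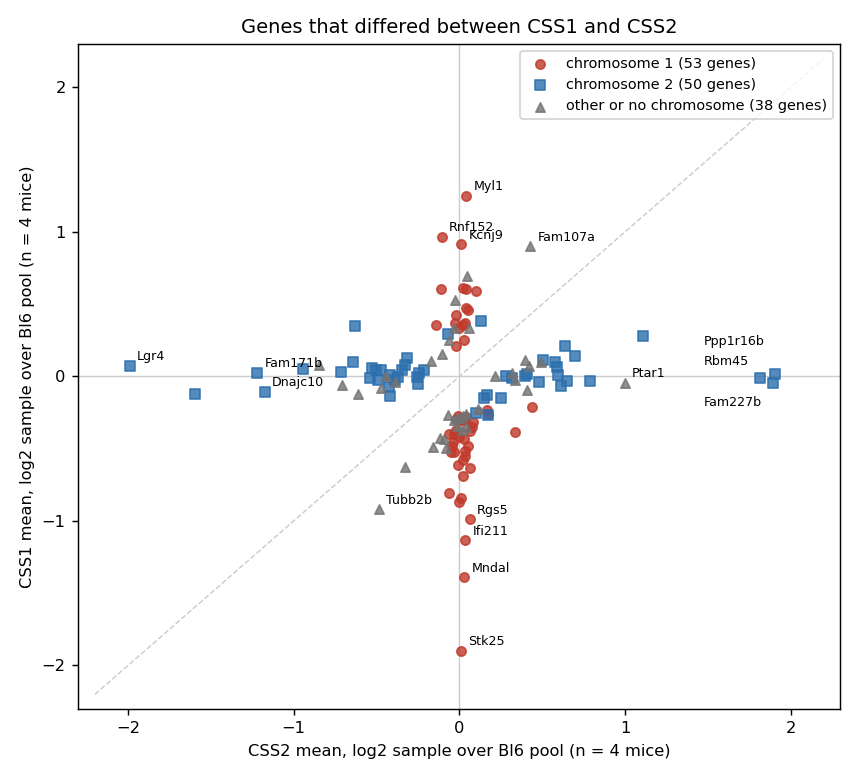
Mean log2 ratio over the Bl6 pool in CSS1 mice (vertical axis) against that in CSS2 mice (horizontal axis), 4 mice each, for the 141 genes that differed between the strains. Genes of chromosome 1 (circles, 53 genes) lie along the vertical axis, genes of chromosome 2 (squares, 50 genes) along the horizontal axis, and the 38 other genes (triangles) are spread over both; the dashed line marks equal ratios.

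The called genes fell mainly on the chromosomes that the strain names point to. Chromosome 1 held 53 of its 1173 tested genes (4.52%), 17 higher and 36 lower in CSS1, and chromosome 2 held 50 of 1926 (2.60%), 27 higher and 23 lower. Together they made up 103 calls, or 73.0% of all, on 14.4% of the genes tested. Of the 18464 remaining genes 38 were called (0.206%), 14 higher and 24 lower; 36 of the remaining genes, 1 of them called, have no chromosome in the annotation, and the other 37 calls lie on other chromosomes. On chromosome 1 it was CSS1 that stood away from the pool in 52 of 53 genes, with a median distance of 0.46 in CSS1 and 0.03 in CSS2. On chromosome 2 it was CSS2 in 45 of 50 genes, with a median distance of 0.05 in CSS1 and 0.49 in CSS2. The other 5 lay farther from the pool in CSS1. Among them were Scn1a, with means of 0.38 in CSS1 and 0.13 in CSS2, Nusap1, with -0.25 and 0.10, and Rcn1, with -0.27 and 0.17. The exception on chromosome 1 was Csrp1, a LIM domain protein of the actin cytoskeleton, at -0.21 ± 0.16 in CSS1 and 0.44 ± 0.12 in CSS2 mice (SD, n = 4 each). Its call was lost without the dye term, without CSS1 mouse 3 and without CSS2 mouse 4 or 10. Of the 53 genes of chromosome 1, 32 were still called without CSS1 mouse 3 and 33 without CSS1 mouse 12, and 31, 35 and 32 without CSS2 mouse 4, 7 and 10. Of the 50 genes of chromosome 2, 29 were still called without CSS1 mouse 3 and 31 without CSS2 mouse 7.

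Among genes of chromosome 1 that were lower in CSS1, the largest difference was that of Stk25, a Ste20-family kinase of the Golgi apparatus with a role in neuronal polarity. Stk25 measured -1.80, -2.04, -1.98 and -1.77 in CSS1 mice, against 0.07, 0.07, -0.06 and -0.04 in CSS2 mice. All CSS1 mice lay far below the pool and all CSS2 mice at it, a 3.76-fold difference (-1.91 ± 0.07 (SE) on the log2 scale, limma adjusted p = 9.85e-06). Rgs5, a regulator of G protein signalling and marker of pericytes, measured -0.92, -1.02, -0.95 and -1.06 in CSS1 mice, against 0.09, 0.12, -0.07 and 0.11 in CSS2 mice. The groups stood apart by -1.05 ± 0.06 (SE) (limma adjusted p = 6.42e-05), and Rgs5 was the only one of 17 endothelial and mural genes to be called. Dnm3, a neuronal dynamin that acts at the postsynapse, was at -0.90, -0.82, -0.88 and -0.88 in CSS1 mice, against -0.08, -0.01, 0.12 and -0.02 in CSS2 mice. Its difference of -0.87 ± 0.05 (SE) came with a spread between CSS1 mice of only 0.03 (limma adjusted p = 9.5e-05).

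Other genes of chromosome 1 that were lower in CSS1 belong to the lists of the clock, the ribosome and the respiratory chain. Npas2, a partner of Bmal1 and close relative of Clock, was 1.8-fold lower, at -0.84 ± 0.03 in CSS1 and 0.01 ± 0.07 in CSS2 mice (SD, n = 4 each). The other 15 measured clock genes were not called, and the median over all 16 was 0.09. Rpl31, a protein of the large ribosomal subunit, averaged -0.81 ± 0.10 in CSS1 and -0.06 ± 0.10 in CSS2 mice, and Cox5b, part of respiratory complex IV, averaged -0.55 ± 0.04 in CSS1 and 0.03 ± 0.06 in CSS2 mice. Both were the only called members of their lists, 21 ribosomal protein genes with a median of -0.06 and 28 genes of oxidative phosphorylation with a median of -0.01. Without the dye term Cox5b was no longer called. Adamts4, an aggrecan-cleaving protease made by oligodendrocytes, averaged -0.38 ± 0.14 in CSS1 and 0.34 ± 0.09 in CSS2 mice, but its dimmer probe read 0.12 in the opposite direction and the mean over its probes was not called. Dbi, whose peptide binds GABA-A receptors, was chosen after its value was seen and averaged -0.53 ± 0.13 in CSS1 and -0.05 ± 0.11 in CSS2 mice (limma adjusted p = 0.0449), a call lost without any 1 of the 8 mice and under 5 other settings.

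The interferon-inducible p200 family, cytosolic and nuclear sensors of DNA encoded in a cluster on chromosome 1, was called in 3 of 9 measured genes, all lower in CSS1, against 0.654% of all genes and 4.52% of those on chromosome 1. Mndal measured -1.47, -1.35, -1.27 and -1.47 in CSS1 mice, against 0.03, -0.06, -0.01 and 0.16 in CSS2 mice, Ifi211 averaged -1.14 ± 0.06 in CSS1 and 0.04 ± 0.08 in CSS2 mice, and Ifi205 averaged -0.29 ± 0.04 in CSS1 and -0.02 ± 0.04 in CSS2 mice. All CSS1 values of these 3 genes lay below all CSS2 values. The other 6 genes, among them Ifi204 and the DNA sensor Aim2, differed by -0.02 to 0.10 and were not called, so the median of the family was -0.01. The second and dimmer Mndal probe read 0.10, and the mean over both was -0.66, which was still called. The second Ifi205 probe read -0.06, and Ifi205 lost its call with the mean over probes (-0.17), without the dye term, with median centring and without any 1 of 7 of the mice, the exception being CSS2 mouse 7. The genes are paralogs, and whether a probe reads more than 1 of them was not tested, so values of single members are uncertain.

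Fewer genes of chromosome 1 were higher in CSS1. Myl1, a myosin light chain of striated muscle, measured 1.34, 1.21, 1.37 and 1.09 in CSS1 mice, against -0.13, 0.15, 0.01 and 0.14 in CSS2 mice. Its bright probe stood apart by 1.21 ± 0.08 (SE) (limma adjusted p = 0.000281), while its dimmer probe read 0.07 and was not called, and the mean over both was 0.64. Rnf152, a lysosomal ubiquitin ligase, measured 0.89, 1.10, 1.09 and 0.79 in CSS1 mice, against -0.30, -0.14, 0.04 and -0.03 in CSS2 mice, with a difference of 1.07 ± 0.09 (SE) (limma adjusted p = 0.00136). Kcnj9 encodes GIRK3, a subunit of the potassium channels that G protein-coupled receptors open. It measured 0.96, 0.97, 0.88 and 0.86 in CSS1 mice, against 0.20, 0.04, -0.18 and -0.01 in CSS2 mice. All CSS1 mice lay well above all CSS2 mice, and the strains differed 1.87-fold (0.91 ± 0.08 (SE), limma adjusted p = 0.00106). Lonrf2, Lyplal1, Klhdc9, Map2 and Dstyk followed with differences of 0.72, 0.59, 0.57, 0.50 and 0.49. Map2, the dendritic microtubule-associated protein, was read by 3 probes of one sign, at 0.50, 0.30 and 0.08 with a mean of 0.29, and lost its call without the dye term and with median centring.

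**Figure D2:**
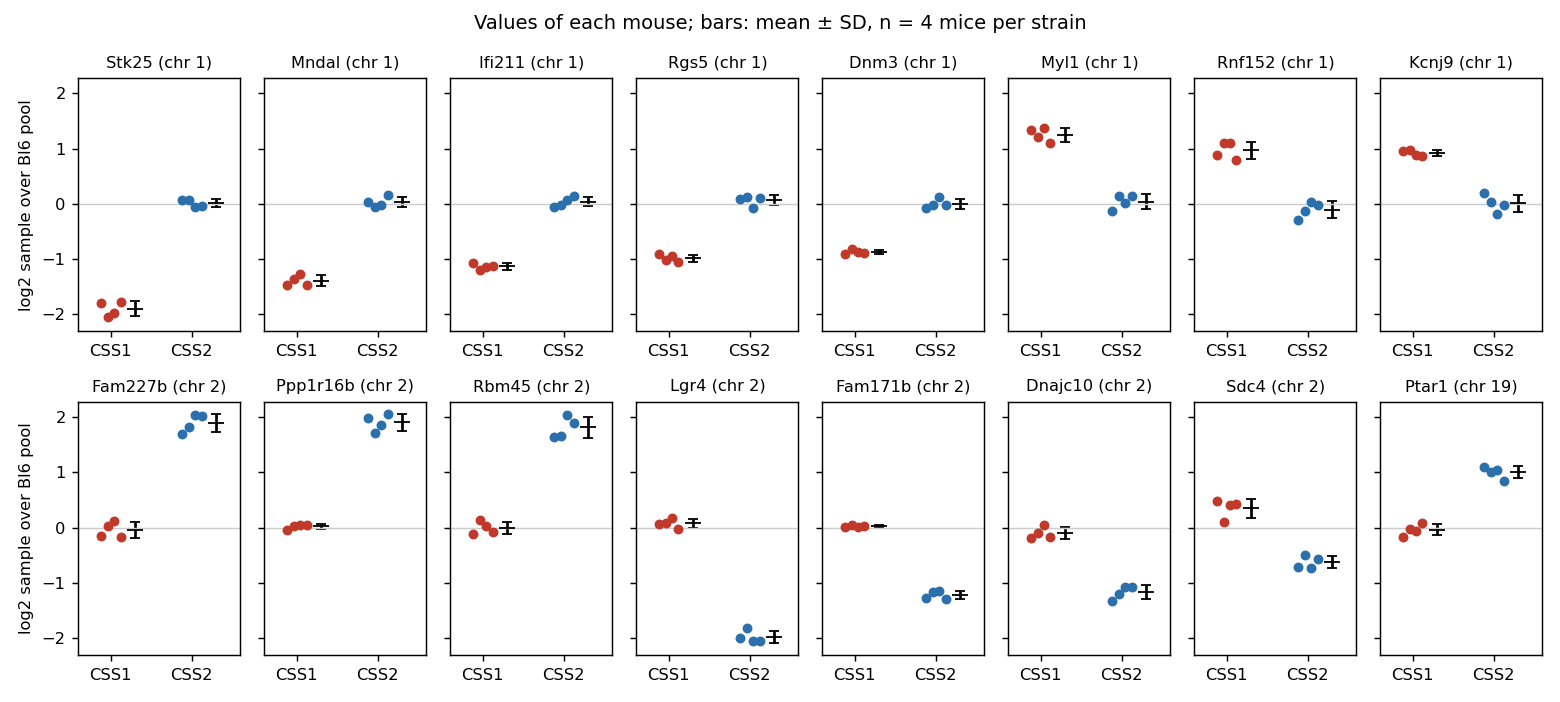
Log2 ratio over the Bl6 pool of each mouse for 16 of the genes with large differences, 8 of chromosome 1 (upper row), 7 of chromosome 2 and Ptar1 of chromosome 19 (lower row); bars give the mean ± SD of 4 mice. In the upper row the CSS1 mice stand away from 0, and in the lower row the CSS2 mice do.

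On chromosome 2 the largest difference of all genes was that of Lgr4, the receptor for R-spondins that strengthens Wnt signalling. Lgr4 measured 0.06, 0.08, 0.17 and -0.02 in CSS1 mice, against -2.01, -1.83, -2.06 and -2.06 in CSS2 mice. The CSS1 mice lay at the pool and the CSS2 mice far below it, so that Lgr4 was 4.18-fold higher in CSS1 (2.06 ± 0.07 (SE), limma adjusted p = 9.85e-06). Its ligands and partners were not called: the 8 other measured genes, Rspo1 to Rspo4, Lgr5, Lgr6, Rnf43 and Znrf3, differed by -0.15 to 0.08. Fam171b measured 0.01, 0.05, 0.01 and 0.03 in CSS1 mice, against -1.27, -1.18, -1.15 and -1.29 in CSS2 mice, with a difference of 1.25 ± 0.04 (SE) and a second bright probe at 0.23 (mean over both 0.74). Dnajc10, which reduces disulfide bonds in the endoplasmic reticulum, measured -0.19, -0.10, 0.05 and -0.18 in CSS1 mice, against -1.33, -1.21, -1.08 and -1.07 in CSS2 mice. Its 2 dimmer probes read 0.04 and 0.06, the mean over its probes was 0.39, and the call was lost without the dye term. It was the only called gene of 24 of the translocon and stress list. Sdc4, a heparan sulfate proteoglycan of astrocytes and other cells, averaged 0.35 ± 0.17 in CSS1 and -0.63 ± 0.11 in CSS2 mice, both strains away from the pool but in opposite directions. Snhg11, a neuronal long noncoding RNA, averaged 0.05 ± 0.25 in CSS1 and -0.94 ± 0.09 in CSS2 mice.

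Further genes of chromosome 2 were higher in CSS1 by smaller amounts. Rbbp9, a serine hydrolase, Ppdpf and Metap1d, a mitochondrial methionine aminopeptidase, differed by 0.75, 0.74 and 0.59. The second Rbbp9 probe gave 0.04, so that the mean over both was 0.39 and still called. The second Metap1d probe gave 0.86, and the 2 other Ppdpf probes gave 0.66 and 0.31. B2m, the light chain of class I histocompatibility molecules and also used as a housekeeping gene, measured 0.16, 0.12, 0.23 and 0.01 in CSS1 mice, against -0.47, -0.23, -0.29 and -0.27 in CSS2 mice. Its difference was 0.44 ± 0.07 (SE) (limma adjusted p = 0.0255), and the call was lost without the dye term, with median centring and without CSS1 mouse 3, 6 or 9 or CSS2 mouse 4, 7 or 10. The 8 other housekeeping genes were not called.

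Of the genes of chromosome 2 that were lower in CSS1, Fam227b, Ppp1r16b and Rbm45 had means above 1.8 in CSS2 and near 0 in CSS1. Ppp1r16b, a regulatory subunit of protein phosphatase 1 found in endothelium, measured -0.04, 0.02, 0.04 and 0.05 in CSS1 mice, against 1.99, 1.72, 1.86 and 2.06 in CSS2 mice. The strains differed 3.7-fold (-1.89 ± 0.07 (SE), limma adjusted p = 9.98e-06). Rbm45, an RNA-binding protein of developing neurons, averaged -0.01 ± 0.11 in CSS1 and 1.81 ± 0.19 in CSS2 mice, and its dimmer probe gave a larger difference of -2.96. Fam227b averaged -0.04 ± 0.15 in CSS1 and 1.89 ± 0.17 in CSS2 mice, with -0.90 on its dimmer probe. Scg5, the chaperone 7B2 that prepares the prohormone convertase Pcsk2, measured 0.39, 0.20, 0.29 and 0.24 in CSS1 mice, against 1.11, 1.26, 0.98 and 1.08 in CSS2 mice. Both strains lay above the pool, CSS2 by far more, and the difference was -0.83 ± 0.07 (SE) (limma adjusted p = 0.000769), a call that was lost without the dye term. Pcsk2 itself was at 0.15 ± 0.11 in CSS1 and -0.18 ± 0.04 in CSS2 mice and did not pass (limma adjusted p = 0.0601). Mtln, a mitochondrial micropeptide, was 1.77-fold lower, with a second probe at -0.67. Dnajc17, Alkbh3 and Cd59b differed by -0.68, -0.68 and -0.59; the dimmer probe of Cd59b, an inhibitor of complement, read 0.11 in the opposite direction, and the mean over both was -0.24.

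**Figure D3:**
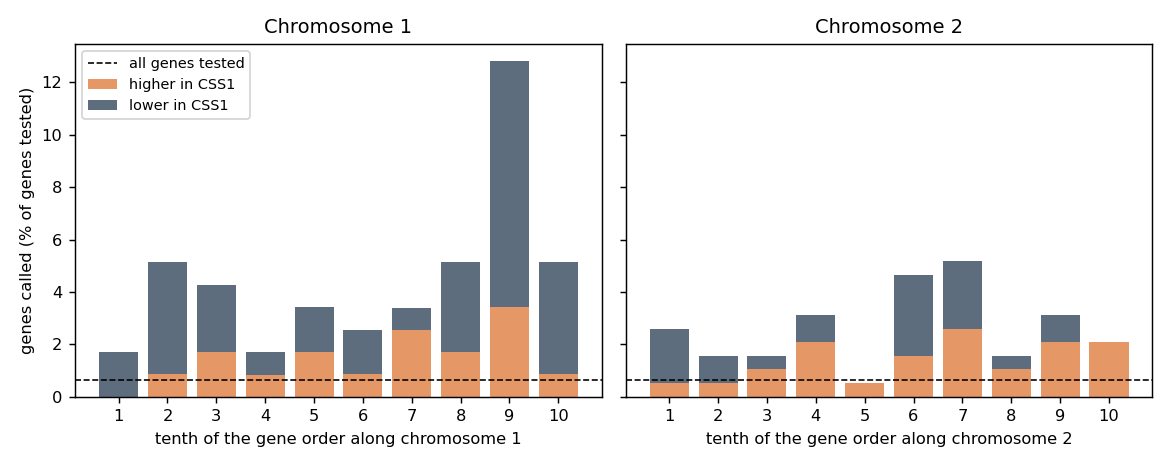
Share of genes called (percent of genes tested) in 10 stretches of equal gene number along chromosome 1 (left) and chromosome 2 (right), split into higher and lower in CSS1; the dashed line is the share over all genes tested, 0.654%. Stretch 9 of chromosome 1 stands above the rest at 12.8%. Stretch 5 of chromosome 2, which begins among olfactory receptor genes, is lowest at 0.521%.

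Called genes were spread along both chromosomes but not evenly. Split by gene order into 10 stretches of nearly equal gene number, chromosome 1 had 2 to 6 calls per stretch except in stretch 9, where 15 of 117 genes were called (12.8%), 4 higher and 11 lower. Stretch 9 holds Kcnj9, Adamts4, the 3 p200 genes, the chemokine receptor Ackr1 and Nos1ap, the adaptor of neuronal nitric oxide synthase. Chromosome 2 had its highest counts in stretch 6, with 9 of 193 genes, and stretch 7, with 10 of 193. In its stretch 5 only Ddb2, a DNA damage-binding protein, was called. That stretch runs from Olfr1106 to Accs, so it begins among olfactory receptor genes, and the median size of difference over its tested genes was 0.03. Whether its low share reflects genes that are not expressed in these samples was not tested. All 4 called genes of the last stretch of chromosome 2, Tshz2, Fam210b, Pmepa1 and Ppdpf, were higher in CSS1. Of the calls named here, those of Ddb2, Tshz2 and Fam210b were lost without 3, 4 and 6 of the 8 mice and with median centring, and that of Pmepa1 under 3 settings, among them the mean over its probes (0.20). Those of Nos1ap and Ackr1 were lost without the dye term, and the mean over the probes of Nos1ap was -0.29.

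In 9 cases the called genes were direct neighbours in the order of tested genes, 7 on chromosome 1 and 2 on chromosome 2. The direction was shared in 5 of these pairs and opposite in 4. Npas2 and Rpl31 were both lower in CSS1, as were Mndal and Ifi211, Nvl and Cnih4, and Pigc and Dnm3. In contrast, Lonrf2 was higher by 0.72 where its neighbour Chst10, a sulfotransferase of the HNK-1 carbohydrate, differed by -0.71. Acadl, an acyl-CoA dehydrogenase, differed by -0.55 beside Myl1 at 1.21. On chromosome 2, Dnajc10 at 1.07 lay beside Frzb, a secreted Wnt inhibitor, at -0.43. Of these genes Cnih4, Pigc and Frzb lost their call without 7, 5 and 3 of the 8 mice, and all 3 without the dye term and with median centring; the mean over the probes of Chst10 was -0.35 and that of Cnih4 -0.60.

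The pair Oip5 and Nusap1 on chromosome 2 was singled out after its values were seen, since both genes were lower in CSS1 and start close to each other on opposite strands. Oip5 helps load the centromeric histone and Nusap1 bundles spindle microtubules. Oip5 measured -0.23, -0.04, -0.19 and -0.15 in CSS1 mice, against 0.27, 0.17, 0.34 and 0.21 in CSS2 mice, and Nusap1 measured -0.29, -0.14, -0.29 and -0.30 in CSS1 mice, against 0.11, 0.04, 0.16 and 0.08 in CSS2 mice. In both genes all CSS1 mice were below the pool and all CSS2 mice above it, with differences of -0.40 ± 0.06 (SE) and -0.35 ± 0.05 (SE) (limma adjusted p = 0.0181 and 0.0188). Oip5 lost its call with median centring and without any 1 of CSS1 mice 3, 9 and 12 or of CSS2 mice 1, 7 and 10. Nusap1 lost its call with median centring and without any 1 of CSS1 mice 3, 9 and 12 or of the 4 CSS2 mice. Their RefSeq gene models in GRCm38.p6 overlap by 208 bases at their 5′ ends. The promoter windows, 250 bases before to 50 after each start, are printed because the pair was lower together and its starts adjoin: chr2:119618456-119618755 on the minus strand for Oip5 and chr2:119618048-119618347 on the plus strand for Nusap1, 108 bases apart. Capitals mark, on either strand, the letters CCAAT of the CCAAT box, found at many cell cycle genes. They also mark the CHR element of such genes, in its form TTTGAA; its other form searched for was TTCGAA, which neither window holds. The motifs do not overlap each other.
Oip5 promoter: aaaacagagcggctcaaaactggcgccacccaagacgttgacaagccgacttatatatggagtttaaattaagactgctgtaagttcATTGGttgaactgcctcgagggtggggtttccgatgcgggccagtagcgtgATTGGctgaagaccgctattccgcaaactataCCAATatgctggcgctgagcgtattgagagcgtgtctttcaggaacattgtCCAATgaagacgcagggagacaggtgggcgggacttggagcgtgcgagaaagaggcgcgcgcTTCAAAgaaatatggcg
Nusap1 promoter: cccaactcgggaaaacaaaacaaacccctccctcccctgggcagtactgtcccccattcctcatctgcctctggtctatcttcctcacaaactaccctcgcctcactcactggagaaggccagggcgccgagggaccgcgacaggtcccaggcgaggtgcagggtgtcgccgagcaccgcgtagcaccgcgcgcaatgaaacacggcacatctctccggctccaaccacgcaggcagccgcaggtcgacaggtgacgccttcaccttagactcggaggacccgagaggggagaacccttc
The Oip5 window holds the CCAAT box 4 times and the CHR element 1 time, and the Nusap1 window holds none of them. Over all 32851 promoter windows of the table, 37.4% hold the CCAAT box, 17.9% the first CHR form, 1.56% the other CHR form and 6.95% both the CCAAT box and the first CHR form.

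The 38 called genes not placed on chromosome 1 or 2 had a median size of difference of 0.35, against 0.46 for the called genes of those chromosomes. Leaving out CSS1 mouse 3, 9 or 12 gave 11, 24 and 18 calls here, and leaving out CSS2 mouse 1, 4, 7 or 10 gave 25, 19, 13 and 13; 9 of them kept their call whichever mouse was left out. Ptar1 of chromosome 19, a protein with prenyltransferase repeats, was the clearest: it measured -0.17, -0.02, -0.06 and 0.07 in CSS1 mice, against 1.10, 1.01, 1.04 and 0.85 in CSS2 mice. All CSS1 mice lay at the pool, and the strains differed 2.06-fold (limma adjusted p = 0.000244). Agfg2 of chromosome 5 and Riox2 of chromosome 16, a ribosomal oxygenase, were higher in CSS1 by 0.56 ± 0.05 (SE) and 0.49 ± 0.05 (SE); their dimmer probes read 0.01 and 0.07, and the means over probes were 0.29 and 0.28. These 3 genes were the only calls on other chromosomes that held under every setting of all 4 and 4 mice and every mouse left out. So did 2810408M09Rik, a clone-named transcript with no chromosome in the annotation, at -0.06 ± 0.07 in CSS1 and -0.71 ± 0.02 in CSS2 mice. Phldb1 of chromosome 9, which organises microtubules at the cell cortex, averaged 0.08 ± 0.18 in CSS1 and -0.85 ± 0.24 in CSS2 mice, and its call was lost without the dye term, without CSS1 mouse 3 or 12 and without CSS2 mouse 4 or 7.

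Other called genes of these chromosomes differed less. Chrm1, the M1 muscarinic receptor of pyramidal neurons, was higher by 0.31 ± 0.04 (SE), with a second probe at 0.06 and a mean over both of 0.19 that was not called. Its call was also lost without the dye term, with median centring and without CSS1 mouse 3, 9 or 12 or CSS2 mouse 1, 7 or 10. Fam107a, an actin-binding protein abundant in astrocytes, averaged 0.90 ± 0.09 in CSS1 and 0.43 ± 0.15 in CSS2 mice, above the pool in both strains, with a call lost without any 1 mouse other than CSS2 mouse 7 and under 7 other settings, the mean over its probes (0.30) among them. Tamm41, which makes a precursor of cardiolipin in mitochondria, was lower by a difference of -0.39, with -0.18 on a second probe, and was not called without the dye term or with median centring. Snrpc, a U1 spliceosome protein, had -0.39 and 2 other probes of the same sign at -0.25 and -0.39; without CSS2 mouse 7 or 10, without the dye term and in the fit of 12 arrays it was not called.

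**Figure D4:**
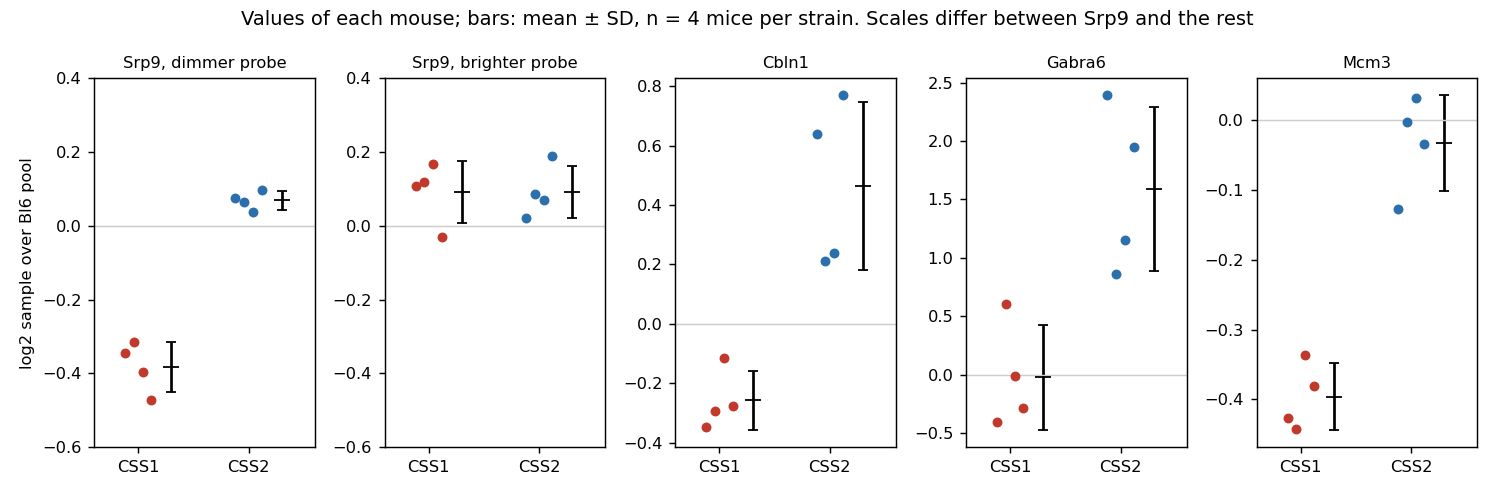
Log2 ratio over the Bl6 pool of each mouse for both Srp9 probes, for Cbln1 and Gabra6, which mark cerebellar granule cells, and for Mcm3, a helicase subunit of DNA replication; bars give the mean ± SD of 4 mice, and the vertical scales differ. The dimmer Srp9 probe separates the strains and the brighter one does not.

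Srp9 encodes a small subunit of the signal recognition particle, which brings ribosomes with secretory proteins to the endoplasmic reticulum. It lies on chromosome 1 and was read by a pair of probes that disagreed. The brighter probe, which stood for the gene in the counts above, measured 0.11, 0.12, 0.17 and -0.03 in CSS1 mice, against 0.02, 0.09, 0.07 and 0.19 in CSS2 mice. The values of the strains overlapped, and the difference was -0.00 (95% interval -0.13 to 0.13). The dimmer probe measured -0.35, -0.32, -0.40 and -0.47 in CSS1 mice, against 0.08, 0.06, 0.04 and 0.10 in CSS2 mice. Here all CSS1 mice lay below all CSS2 mice, a 1.37-fold difference of -0.45 ± 0.04 (SE), with a limma adjusted p of 0.00226 over all 39051 kept probes. The dimmer probe's adjusted p ranged from 0.000475 to 0.0490 over the other settings of both dye orientations and mice left out. On the 4 arrays with the sample in Cy5 its difference was -0.48 and on the 4 in Cy3 -0.43, and neither passed (limma adjusted p = 0.239 and 0.183). It was not part of the counts above, and the mean over both probes gave -0.23 for the gene, which was not called. Both probes were above background in all 8 mice, and which of them reads the full set of Srp9 transcripts is not settled by the files. Srp14, its partner in the Alu domain of the particle, lies on chromosome 2 and was at 0.11 ± 0.07 in CSS1 and 0.28 ± 0.10 in CSS2 mice, a difference of -0.17 ± 0.06 (SE) that did not pass (limma adjusted p = 0.439). None of the 8 genes of the particle and its receptor was called, and their median difference was -0.06.

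Most genes of neuronal excitability did not pass the threshold, with 3 potassium and sodium channel genes as exceptions, all higher in CSS1. Besides Kcnj9, the only called member of 4 GIRK genes, these were Kcna2, of 23 other potassium and HCN channel genes, and Scn1a, of 8 sodium channel genes. Over all genes 0.654% were called, 0.269% higher in CSS1. Kcnj9 and Scn1a lie on chromosomes 1 and 2, where 4.52% and 2.60% of genes were called. Kcna2, a Shaker-type channel of axons, measured 0.43, 0.33, 0.26 and 0.33 in CSS1 mice, against 0.11, 0.05, -0.01 and 0.07 in CSS2 mice, a difference of 0.28 ± 0.05 (SE) (limma adjusted p = 0.049). Among 23 other potassium and HCN channel genes 19 had positive differences, against 47.7% of all genes. The median was 0.09 against -0.00 over all genes. Kcna2 alone was called, with the call lost without any mouse other than CSS1 mouse 9 and under 7 other settings. The list's median per mouse was 0.09, 0.09, 0.14 and 0.10 in CSS1 mice, against 0.02, 0.01, -0.02 and 0.03 in CSS2 mice, without overlap. Scn1a, the sodium channel whose human gene is linked to febrile seizure syndromes, lies on chromosome 2 and measured 0.35, 0.36, 0.44 and 0.38 in CSS1 mice, against 0.11, 0.18, 0.14 and 0.11 in CSS2 mice. Both strains were above the pool and CSS1 more so, by 0.25 ± 0.04 (SE) (limma adjusted p = 0.0287); this call was lost without any 1 of the 8 mice and under 4 other settings, and its other probes read 0.14 and -0.01 with a mean of 0.13. The 7 other sodium channel genes were not called.

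Receptors and release genes were not called apart from those already named. None of 18 calcium channel genes, 9 GABA-A receptor subunits, 19 glutamate receptor subunits and 13 genes of chloride transport and GABA synthesis passed, with medians of 0.02, 0.07, -0.00 and 0.00. The AMPA receptor subunits Gria2 and Gria3 had differences of 0.29 ± 0.10 (SE) and 0.27 ± 0.08 (SE) (limma adjusted p = 0.47 and 0.353). Of 20 genes of synaptic vesicle release Dnm3 was the only call, and the median was 0.08. Among 20 immediate early genes none was called, and Nr4a2 had the difference of smallest p at 0.21 ± 0.04 (SE) (limma adjusted p = 0.0999).

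The fever and heat response gave no calls. The 17 measured genes of the interleukin-1 and fever pathway differed by -0.11 to 0.12, with a median of 0.01, and Il1r1, the receptor of interleukin-1 on chromosome 1, was at 0.04 ± 0.06 in CSS1 and 0.13 ± 0.03 in CSS2 mice. The 15 heat shock chaperones differed by -0.19 to 0.04, with a median of -0.02. At an adjusted p under 0.05 the design found 34 of 67 simulated differences of 0.25 and 63 of 67 of 0.5. Differences of 0.25 or less in these lists could be missed at this number of arrays, and larger ones where a gene varied more. The heat shock chaperone Hspd1 had an SE of 0.11, against a median of 0.0499 over all genes. Outside these lists, Gabra6 at -1.61 ± 0.35 (SE) and Cbln1 at -0.72 ± 0.13 (SE) were not called.

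The cell division list leaned to lower values in CSS1. In this list of 24 cell division genes 3 passed, Mcm3, Nusap1 and Birc5, all lower, where 0.654% of all genes were called and 0.385% lower; 2 of the 3 lie on chromosomes 1 and 2. Positive differences were found in 5 of the 24 genes, against 47.7% of all genes, and the median was -0.13, against -0.00 over all genes. Mcm3, a subunit of the replicative helicase that lies on chromosome 1, measured -0.43, -0.44, -0.34 and -0.38 in CSS1 mice, against -0.13, -0.00, 0.03 and -0.03 in CSS2 mice, a difference of -0.36 ± 0.05 (SE) (limma adjusted p = 0.0113), with -0.30 on a second probe. Birc5 of chromosome 11, the survivin of the chromosomal passenger complex, averaged -0.43 ± 0.04 in CSS1 and -0.12 ± 0.06 in CSS2 mice, while its 2 other probes read -0.05 and -0.03 and the mean over its probes, -0.13, was not called. Mcm3 lost its call without the dye term, with median centring and without CSS1 mouse 3 or CSS2 mouse 4, 7 or 10. Birc5 lost it in the fit of 12 arrays, with median centring and without CSS1 mouse 3, 9 or 12 or CSS2 mouse 4 or 10. Members that did not pass included Cdk1 at -0.46, Mki67 at -0.34 and Top2a at -0.17, while Bub1b was at 0.17 and Tpx2 at 0.11. The median of the list per mouse was -0.19, -0.15, -0.19 and -0.21 in CSS1 mice, against -0.08, -0.06, -0.02 and -0.07 in CSS2 mice, without overlap, and the median difference ranged from -0.15 to -0.12 over 20 other settings. In whole tissue, fewer cells of a type and less RNA per cell cannot be told apart.

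Genes of progenitors and immature neurons shared this direction: of 17 measured, Tubb2b and Cd24a were called lower in CSS1, where 0.385% of all genes were. A positive difference was found in 1 of the 17, against 47.7% of all genes, and the median was -0.12. Tubb2b of chromosome 13, a tubulin of migrating neurons, averaged -0.92 ± 0.08 in CSS1 and -0.49 ± 0.08 in CSS2 mice, below the pool in both strains (limma adjusted p = 0.0101), and lost its call without the dye term, with scale normalization, with the mean over probes and without CSS1 mouse 3. Its other probes read -0.41 and -0.21, and neither passed. Cd24a, a surface marker of young neurons, averaged -0.63 ± 0.08 in CSS1 and -0.33 ± 0.06 in CSS2 mice (limma adjusted p = 0.0489) and lost its call without any 1 of the 8 mice and under 7 other settings. Medians per mouse overlapped, at -0.39, -0.15, -0.35 and -0.20 in CSS1 mice, against -0.07, -0.28, -0.03 and -0.20 in CSS2 mice. Neurod1 and Fabp7, at -0.56 and -0.63, did not pass.

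Genes of cerebellar granule cells had lower values in CSS1 than in CSS2 samples, the same direction as the progenitor and the cell division list. Gabra6, the GABA-A subunit of those cells, measured -0.41, 0.60, -0.01 and -0.28 in CSS1 mice, against 2.39, 0.86, 1.16 and 1.95 in CSS2 mice. The spread between CSS2 mice was wide, and the difference of -1.61 ± 0.35 (SE) did not pass (limma adjusted p = 0.123). Cbln1 had -0.72 ± 0.13 (SE) (limma adjusted p = 0.0601) and Pcp2, a Purkinje cell gene whose values overlapped, -0.35 ± 0.13 (SE). Looked up after these values were seen, Cbln3, Barhl2, Zic1 and Zic2 had -0.74, -0.55, -0.52 and -0.34, without overlap between the strains and short of the threshold. Of all genes, 6.71% also did not overlap. Chd7, a chromatin remodeller expressed in granule cell precursors, was called at -0.50 ± 0.09 (SE) (limma adjusted p = 0.049), a call lost without CSS1 mouse 3, 6 or 12 or any 1 of the 4 CSS2 mice and under 6 other settings. Of the 16 genes of other brain regions the remaining 13 differed by -0.04 to 0.27. The part of these cells in the differences of Chd7, Neurod1, the progenitor list or the cell division list was not tested.

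**Figure D5:**
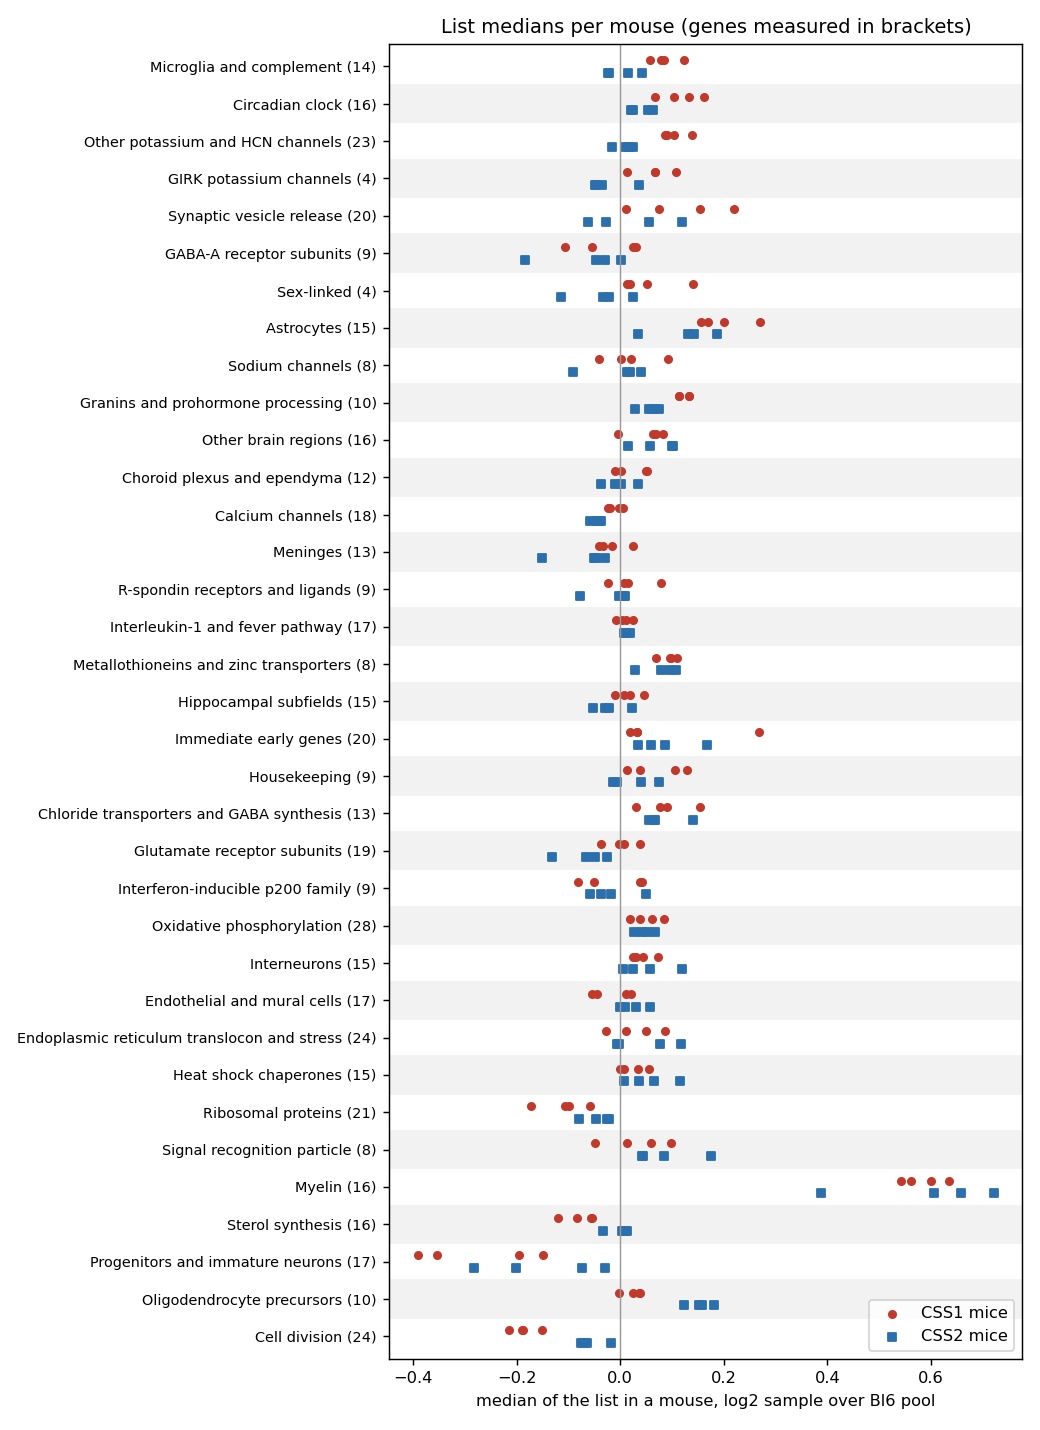
Median of each gene list, blood cells left out, in each mouse (log2 ratio over the Bl6 pool), CSS1 mice as circles above CSS2 mice as squares. Lists are ordered by their median difference, with the number of measured genes in brackets. The mice of the strains do not overlap for cell division, oligodendrocyte precursors and sterol synthesis, lower in CSS1. Nor do they for microglia, the clock, granins, potassium and calcium channels, whose medians were higher in CSS1. The only called clock and granin genes, Npas2 and Scg5, were lower in CSS1. Calcium channel genes differed by -0.70 to 0.16, with a median of 0.02. The median difference of the granins was -0.04 on Cy5 and 0.04 on Cy3 arrays alone. Myelin overlaps, at 0.54 to 0.63 in CSS1 and 0.39 to 0.72 in CSS2 mice.

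In the oligodendrocyte lineage no gene of myelin or of precursors passed the test. The 16 myelin genes had a median per mouse of 0.58 ± 0.04 in CSS1 and 0.59 ± 0.15 in CSS2 mice (SD, n = 4 each). Both lay well above the pool, and the median difference was -0.06. Of the 16 genes, 13 had negative differences, where 47.7% of all genes had positive ones. The 10 precursor genes had 0.02 ± 0.02 in CSS1 and 0.15 ± 0.02 in CSS2 mice (SD, n = 4 each), without overlap, and 9 of them had negative differences with a median of -0.12. Bcas1, a marker of early myelinating cells, was at -0.27 ± 0.05 (SE) and the lineage factor Olig2 at -0.20 ± 0.04 (SE); neither passed (limma adjusted p = 0.0595 and 0.0885). The 16 genes of sterol synthesis, with 14 negative differences, had a median of -0.10, and none was called.

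In microglia and complement 13 of 14 genes had positive differences, against 47.7% of all genes, with a median of 0.11. None was called, and the lysosomal protease Ctss came nearest at 0.30 ± 0.06 (SE) (limma adjusted p = 0.08). The chemokine Ccl6, made by microglia and other myeloid cells in mice, was called at 0.37 ± 0.06 (SE) (limma adjusted p = 0.0337), a call lost without any mouse other than CSS1 mouse 12 and under 3 other settings. Astrocyte genes had a median of 0.06 (-0.02 without CSS1 mouse 9) with no call of 15, and the metallothioneins Mt1 and Mt2 had 0.31 ± 0.05 (SE) and 0.26 ± 0.07 (SE) (limma adjusted p = 0.0596 and 0.247). Interneuron genes, with Vip at 0.29 ± 0.07 (SE) (limma adjusted p = 0.153), gave no call of 15 and a median of -0.02. Markers of meninges, choroid plexus, blood and the sex-linked genes gave no call of 13, 12, 2 and 4 genes, with medians of 0.02, 0.03, 0.08 and 0.06.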

How the data were processed

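RNA of 8 mice, 4 CSS1 and 4 CSS2, was read on dual-colour arrays against a Bl6 pool, 2 arrays of each dye orientation per strain. Per the labels, channel 1 is Cy5. The authors deposited spot intensity per channel (mean foreground, median local background, neither subtracted, per the file headers) and a table of log2 ratios, normalized by a method not stated in the labels or headers. The authors' ratios rise with the scanner ratio of sample over pool on all 12 arrays; their differences correlate with those computed here at 0.984 with a median size ratio of 1.03 over 34 genes, and their column medians lie between -0.00502 and 0.00337 for CSS1 and between -0.00155 and 0.00493 for CSS2, so scale, centring and direction were settled from the values. No label or header names the image software, the scanner or the array's genome build.

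Of 45220 spots, 39429 are gene probes, 2200 are control spots and 3591 belong to 399 quality probes. With limma 3.58.1 in R 4.3.3, background was corrected by normexp (offset 50) and arrays were normalized by loess, with control and quality spots at weight 0. Probes with a mean log2 intensity under 6.15, the 95th percentile of 1580 background control spots, were left out (378), leaving 39051. Of these, 28319 carried a symbol current in the GRCm38.p6 table, 3796 an older one, 63 only the deposited symbol and 6873 none. Each of the 21563 genes tested was read by its brightest kept probe, and 7652 genes had more than 1. limma was fitted to the 8 arrays with strain and dye terms (residual degrees of freedom 5, prior 3.44), and p-values were adjusted over the 21563 genes (Benjamini-Hochberg, threshold 0.05). The median standard error was 0.0499, and the number of arrays limits the precision. Tested on simulated data over 21563 genes, 34 of 67 differences of 0.25, 63 of 67 of 0.5 and 66 of 66 of 1 were called, with 8 calls among 21363 unchanged genes.

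Named genes were, without clone or predicted names, the 10 largest calls each way, the 8 largest each way on chromosome 1, on chromosome 2 and elsewhere, Srp9, and up to 4 called members of each of 36 gene lists or else up to 2 by smallest p. Further genes, such as Csrp1, Dbi, Oip5, Pcsk2 and neighbours of called genes, were named after their values were seen. The members and lists were chosen with earlier results of these data known. Lists are described by counts and medians. Alternatives were the fit of all 12 arrays, no dye term, a block of consecutive mouse numbers, median centring, scale normalization, other background corrections, the authors' values, other probe filters, the mean over probes, array weights and each mouse left out; fits of 1 dye orientation were chosen after seeing the data.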

Additional observations from a re-analysis of the deposited data

Results flagged for a closer look

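In 11 of 272 sets of 4 mice, for 7 genes and 4 lists, 1 mouse stood so far from the other 3 that its gap to them exceeded Dixon's critical share of the group's range; chance alone does this in about 5% of groups, which is 13.6 of 272. Among CSS1 mice, mouse 9 read 0.15 for Cd9 where the others lay between 0.04 and 0.05, mouse 6 read 0.17 for Chrm1 (others 0.28) and -0.14 for Nusap1 (others -0.30 to -0.29), and mouse 12 read 0.24 for Vip (others 0.46 to 0.49). Among CSS2 mice, mouse 7 read -0.023 for Birc5 (others -0.16 to -0.14) and 0.20 for Fam107a (others 0.48 to 0.52), and mouse 4 read 0.018 for Chrm1 (others -0.09 to -0.08). For list medians, CSS1 mouse 9 stood at 0.27 for the immediate early genes against 0.02 to 0.03 in the others. CSS2 mouse 10 stood at 0.037 for the GIRK channels (others -0.05 to -0.04) and at 0.14 for chloride transport and GABA synthesis (others 0.06 to 0.07), and CSS2 mouse 1 at -0.077 for the R-spondin genes (others -0.00 to 0.01). Chrm1, Nusap1, Birc5, Cd9 and Fam107a did not overlap between CSS1 and CSS2, which held for all 141 called genes. The medians of the 4 flagged lists did overlap between the strains. For the GIRK channels, CSS2 mouse 10 stood above CSS1 mouse 12 at 0.013.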

How the results depend on the processing

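All 141 genes kept their sign under the settings that tested them, which says little for genes picked for separated values in these arrays. Of the 141, 44 were called under every setting of the 4 and 4 mice and with every mouse left out. They were 20 on chromosome 1, 20 on chromosome 2, 3 on other chromosomes and 1 with no chromosome in the annotation, counted as elsewhere below. Against 141 calls (58 higher, 83 lower in CSS1), the fit of 12 arrays gave 214 (130 lower), no dye term 57 (26 higher, 31 lower), median centring 70 (29 higher, 41 lower) and array weights 247 (160 lower); a mouse left out gave 72 to 123 (32 to 47 higher, 40 to 76 lower). The 4 arrays with the sample in Cy5 gave 22 (8 higher, 14 lower) and those in Cy3 gave 11 (5 higher, 6 lower), from fewer samples. Calls on chromosome 1, 53 of them, became 23 without the dye term, 32 with median centring, 31 to 48 with a mouse left out, and 10 and 5 on Cy5 and Cy3 arrays. Calls on chromosome 2, 50 of them, became 80 with 12 arrays, 27 without the dye term, 27 with median centring, 84 with array weights, 29 to 45 with a mouse left out, and 10 and 5 on Cy5 and Cy3 arrays. Calls elsewhere, 38 of them, became 63 with 12 arrays, 7 without the dye term, 11 with median centring, 25 with scale normalization, 21 with normexp offset 0, 92 with array weights, 11 to 36 with a mouse left out, and 2 and 1 on Cy5 and Cy3 arrays. Apart from the lower numbers of samples, the cause of these shifts was not tested. The share of calls on chromosomes 1 and 2, 73.0% in all, was 62.8% with array weights and 87.7% without the dye term. Uncalled differences near 0 changed sign: Slc4a1 of blood cells (0.01) ranged from -0.0060 without CSS2 mouse 10 to 0.040 without CSS2 mouse 1, and the brighter Srp9 probe (-0.00) from -0.031 without CSS1 mouse 9 to 0.048 without CSS1 mouse 12, with 0.00017 at no background correction. The dimmer Srp9 probe passed under all settings of the 4 and 4 mice and without any 1 mouse, but not on Cy5 or Cy3 arrays alone. Of 36 list medians 23 kept their sign in all 20 settings, and 19 in both dye orientations. The strains share no mouse number and the labels name no pairs; mice blocked by consecutive numbers, with no dye term, gave 147 calls, 121 of them shared.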

Other observations

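Among the 6873 kept probes without a gene symbol, 35 differed between CSS1 and CSS2 at a limma adjusted p under 0.05 over all kept probes (0.509%), 23 higher and 12 lower in CSS1, with differences reaching 1.51 and -0.92. Of the 57 called genes with more than 1 probe, the 71 further probes shared the sign of the probe shown in 52 cases, 28 of them at an unadjusted p under 0.05, and opposed it in 19, 5 of them at an unadjusted p under 0.05.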
